A study of Homo sapiens with 8 samples.

Results

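The endoplasmic reticulum (ER) folding, degradation and unfolded protein response genes examined here were 38 listed genes, MANF among them, chosen by name and role when earlier results of these data were known. All 38 were found among the 86369 Ensembl identifiers of the count table, and 36 of them were among the 13840 genes with enough counts to be tested. The cells were HepG2, an established hepatocellular carcinoma line, transfected by lipofection with small interfering RNA (siRNA) directed at NAT10, an RNA cytidine acetyltransferase (siNAT10), or with a negative control (siCtrl), and RNA was harvested at day 2. Each group had 4 libraries of mRNA 3' ends, replicates 1 and 2 in batch 1 and replicates 3 and 4 in batch 2. The labels do not say whether replicates were separate cultures, so the p-values measure the spread between these libraries, part of which may be technical.

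Secreted and membrane proteins fold in the ER with the help of chaperones and of enzymes that form disulfide bonds, and those that fail to fold are passed back to the cytosol and degraded. When unfolded proteins build up, the membrane sensors IRE1 (gene ERN1), PERK (gene EIF2AK3) and ATF6 start the unfolded protein response, which raises chaperone and degradation genes, partly through the transcription factor XBP1. Hepatocytes secrete most plasma proteins and carry a heavy ER folding load. The active form of XBP1 arises by splicing and that of ATF6 by cleavage, neither of which a 3' end count shows.

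The 2 members that passed the test moved in opposite directions in siNAT10. MANF, a small ER stress factor that is partly secreted, rose by 34.8%, and ERN1, the gene of the sensor IRE1, fell by 25.5%. Among the tested chaperones, disulfide enzymes, degradation genes and translocation genes 0 were called, HSPA5 included, whose protein BiP is the main ER chaperone of the HSP70 family. A gene was called at an adjusted p under 0.05 in edgeR's quasi-likelihood test with batch in the model, adjusted over all 13840 tested genes. Of the 36 members tested, 2 were called (5.56%), against 2.28% of all tested genes. As the list was made with results known, this count describes it and is no independent support. In the upward direction it was 1 member where 0.816% of all genes were called, and downward 1 member where 1.46% were. With an unadjusted p under 0.05 there were 6 of 36 members (16.7%), close to the 15.7% of all tested genes.

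A motif of ER stress genes was looked up in the promoters, since it is known as a binding site of ATF6 and XBP1 at many ER stress genes. The motif, the ER stress response element (ERSE), is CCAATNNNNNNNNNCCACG, searched on both strands from 250 bases before to 50 bases after each start site in RefSeq's GRCh38.p14 table, which held 35 of the 38 members. It was found at 8 of those 35 members and at 0.0916% of the 27305 genes in the table; the members were listed as genes of this response, so the difference describes the list. The copies are given 5′ to 3′ in the direction of the motif, with its fixed letters in capitals and the spacer in lower case.

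HSPA5 (chr9:125241391-125241409, minus strand): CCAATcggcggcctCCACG
HSP90B1 (chr12:103930216-103930234, plus strand): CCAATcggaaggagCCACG
HSP90B1 (chr12:103930321-103930339, minus strand): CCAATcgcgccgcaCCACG
CALR (chr19:12938384-12938402, minus strand): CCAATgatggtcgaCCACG
CANX (chr5:179698778-179698796, plus strand): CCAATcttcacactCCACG
PDIA6 (chr2:10812853-10812871, minus strand): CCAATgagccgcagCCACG
CRELD2 (chr22:49918554-49918572, minus strand): CCAATccgagttcgCCACG
ERO1B (chr1:236282183-236282201, plus strand): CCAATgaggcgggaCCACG
XBP1 (chr22:28800603-28800621, minus strand): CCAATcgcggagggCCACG

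Both called members, MANF and ERN1, were without an exact copy in their windows. The 7 carriers of the motif that were tested had log2 fold changes from -0.16 (CRELD2) to 0.31 (ERO1B) with a median of 0.036, and 0 of them were called. The upper end rests on siNAT10 replicate 4: without that library ERO1B was at -0.12 and HSPA5 was highest at 0.14. The shorter ERSE-II, ATTGGNCCACG, was in the windows of HERPUD1, HYOU1 and SDF2L1 and of 0.0696% of all genes, and those members had log2 fold changes of 0.11, -0.02 and 0.19. The core of the unfolded protein response element, TGACGTG, was in those of HYOU1, SEC61A1 and SSR3 and of 2.4% of all genes. The 22 tested members with a window and none of these motifs had a median of 0.077. A match is a run of letters, not evidence of binding, and no match says only that the exact letters are not in the window.

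The 250 bases before the start site are shown for the called members and, as the one with the classical element in capitals, for HSPA5. They read 5′ to 3′ on the strand of the gene.

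MANF (chr3:51385041-51385290, plus strand): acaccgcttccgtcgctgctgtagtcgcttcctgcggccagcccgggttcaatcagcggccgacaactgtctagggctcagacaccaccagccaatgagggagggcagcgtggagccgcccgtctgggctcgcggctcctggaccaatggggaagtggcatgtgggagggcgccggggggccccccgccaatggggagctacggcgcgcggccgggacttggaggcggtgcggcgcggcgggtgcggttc
ERN1 (chr17:64130145-64130394, minus strand): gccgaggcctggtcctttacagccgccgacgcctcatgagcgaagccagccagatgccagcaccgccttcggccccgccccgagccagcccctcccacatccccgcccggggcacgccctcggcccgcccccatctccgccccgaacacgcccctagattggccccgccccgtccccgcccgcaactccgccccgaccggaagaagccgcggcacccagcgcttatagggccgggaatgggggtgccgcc
HSPA5 (chr9:125241344-125241593, minus strand): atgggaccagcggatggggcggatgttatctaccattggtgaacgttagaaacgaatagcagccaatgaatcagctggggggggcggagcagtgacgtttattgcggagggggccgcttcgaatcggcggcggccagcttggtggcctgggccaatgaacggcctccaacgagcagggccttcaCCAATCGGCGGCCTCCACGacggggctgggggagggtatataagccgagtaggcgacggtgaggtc

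Totals ran from 9731718 to 27977110 counts per library, lowest in the siNAT10 libraries of batch 2. Levels are given as CPM, counts scaled to a common library total and corrected for library composition. Because a 3' end library reads each transcript near its end, levels do not grow with transcript length. NAT10 itself stood at 39.2 to 77.8 CPM under siCtrl and 12.2 to 22.3 CPM under siNAT10, a log2 fold change of -1.66 (adjusted p 2.0e-05 in edgeR). Among the hepatocyte markers ALB averaged 3917 CPM and AFP 1521 CPM, SERPINA1 averaged 4.97 CPM and APOB was near 0; how reads in more than one gene were counted is not given in the sources used here, and its part in that value was not tested. TF was called lower in siNAT10. The summed level of the marker list was 9423 to 9899 CPM under siCtrl and 7605 to 8171 CPM under siNAT10, without overlap. The defining leukocyte genes PTPRC and CD3E were at 0, as were the fibroblast genes COL1A2 and DCN, while LYZ from the leukocyte list stood at 475.4 CPM under siCtrl and 355.5 CPM under siNAT10. With COL1A1 and PDGFRB the fibroblast list summed to 0.293 to 1.38 CPM per library. The endothelial list (PECAM1, VWF and CDH5) summed to 0 to 0.796 CPM. The mRNAs encoded in mitochondria took 0.934% to 1.17% of the counts in siCtrl and 0.681% to 1.11% in siNAT10. Within each batch both siNAT10 libraries were below both siCtrl libraries. Batch 1 had 0.758% and 0.681% in siNAT10 against 0.978% and 0.934% in siCtrl. Batch 2 had 1.11% and 1.09% against 1.17% and 1.13%. The part of the hepatocyte marker shift or the mitochondrial share in the member results was not tested.

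CALR, HSP90B1, P4HB and HSPA5 were the most abundant, with averages from 1105 CPM (HSPA5) to 1604 CPM (CALR), and 18 members averaged at least 100 CPM. Together the members took 0.954% to 1.17% of a library's counts. DERL3, which encodes a degradation channel protein of secretory cells, was listed at 0 in every library, and a count of 0 allows at most 0.107 to 0.308 CPM depending on the library. CANX, the membrane-bound lectin chaperone calnexin, had only 1 to 14 counts per library and was not tested, and HYOU1, a large chaperone of the HSP70 family, had 9 to 40. Both genes are known to be abundant in most secretory cells. In GENCODE no other gene lies over the last 500 bases of CANX. Over those of HYOU1 only a gene without a symbol lies, on the other strand. How the counting treated reads that fall in more than one gene is not given in the sources used here. The part of such reads in these low values was not tested.

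**Figure D1:**
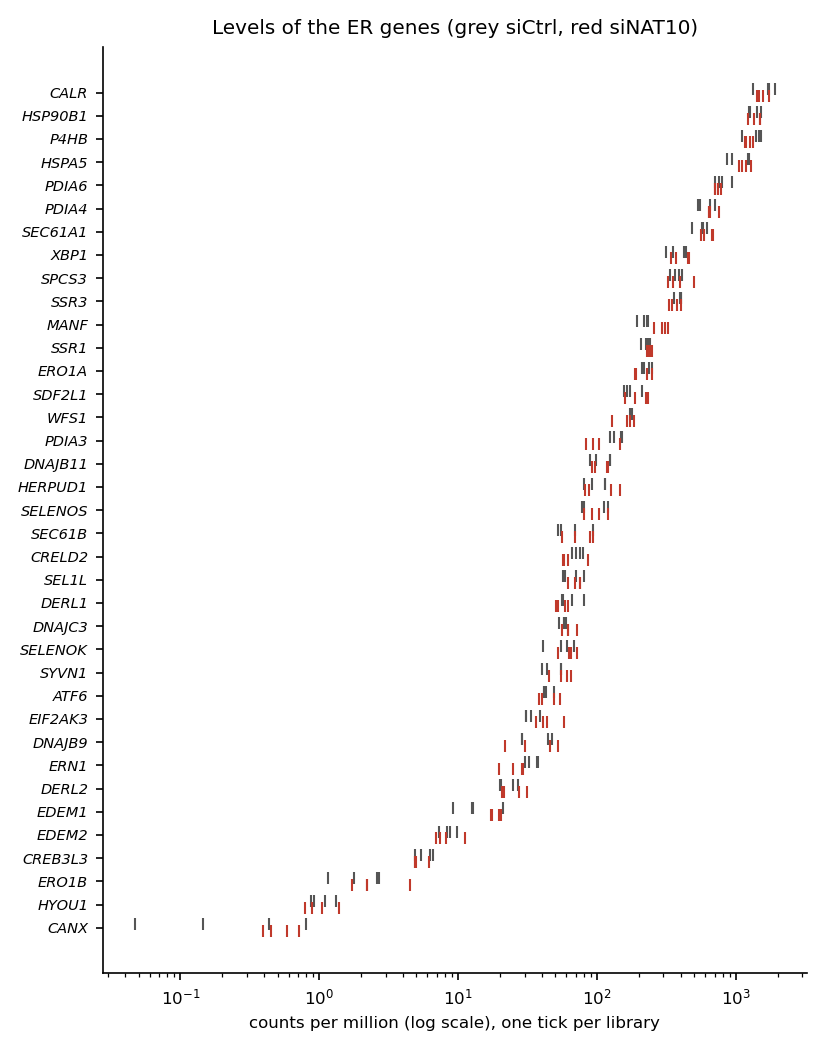
CPM of the 37 ER genes with any count, on a log axis, sorted by mean level; each tick is 1 library, grey for siCtrl and red for siNAT10. Grey and red ticks overlap in range for the tested members other than MANF and ERN1.

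MANF encodes mesencephalic astrocyte-derived neurotrophic factor, which binds BiP in the ER lumen and is released under stress. The gene (ENSG00000145050) lies on chromosome 3 from 51385291 to 51389397, plus strand, in GRCh38. Its level was 193.9, 232.0, 217.0 and 228.2 CPM in the siCtrl replicates 1 to 4 and 292.7, 254.3, 307.4 and 322.5 CPM in the siNAT10 replicates. Every siNAT10 library was above every siCtrl library, and both batches showed the gap. Group means were 217.8 ± 17.2 and 294.2 ± 29.3 CPM (SD, n = 4 in each group), resting on 3158 to 7315 counts per library. On the log2 scale MANF rose by 0.43 (standard error 0.10), with a 95% interval from 0.22 to 0.65 (adjusted p 0.036 in edgeR). On log2 CPM, a two-sided exact permutation test gave p = 0.029, the smallest that 70 arrangements allow, and p = 0.056 with labels exchanged within batches only, the smallest that 36 allow. With labels exchanged only within same-numbered pairs the exact permutation test gave p = 0.125, the smallest that 16 allow, so that test cannot reach 0.05. Groups without overlap always give these smallest values, so the permutation tests restate that position and are no further support. Their p-values are not adjusted. EIF2AK3, SYVN1, DERL2 and CREB3L3 also had p = 0.056 in the exact permutation test within batches. Batch 1 gave a log2 fold change of 0.36 and batch 2 one of 0.50.

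The call of MANF was near the threshold. Of 8 fits that each dropped a single library, 1 kept it, the fit without siCtrl replicate 2 (adjusted p 0.045), and in the other 7 the adjusted p ran from 0.064 to 0.13, with log2 fold changes between 0.39 and 0.49. Without the batch term the adjusted p was 0.30, and in batch 1 or batch 2 alone it was 0.28 or 0.54. MANF was called in 7 of the 17 alternatives. These were the fit without siCtrl replicate 2, DESeq2 (adjusted p 0.0021), the replicate block (0.031) and RLE size factors (0.035). The rest were library size alone (0.026), no filter (0.015) and a mean of at least 10 counts (0.036).

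ERN1 encodes IRE1, the kinase and RNase that splices XBP1 mRNA when unfolded proteins gather in the ER. The gene (ENSG00000178607) lies on chromosome 17 from 64039080 to 64130819, minus strand. Its level was 37.1, 37.7, 30.4 and 32.2 CPM in the siCtrl replicates 1 to 4 and 29.3, 28.7, 24.8 and 19.7 CPM in the siNAT10 replicates. All siNAT10 libraries lay below all siCtrl libraries, and batch 2 was lower than batch 1 within each group. Means were 34.3 ± 3.62 and 25.6 ± 4.44 CPM (SD, n = 4), from 201 to 1020 counts per library. ERN1 fell by 0.42 on the log2 scale, with a standard error of 0.11 and a 95% interval from -0.65 to -0.20 (adjusted p 0.049 in edgeR). The exact permutation p was 0.029 over all arrangements and 0.056 within batches and 0.125 within pairs, again the smallest possible. As for MANF, groups without overlap fix these values, so they are no further support. The batches gave -0.36 and -0.49.

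For ERN1 the call was lost in each of the 8 fits without one library (adjusted p 0.071 to 0.14, log2 fold change -0.47 to -0.35). It was also lost with RLE size factors (0.055), with library size alone (0.074) and without the batch term (0.48). The same held in either batch alone (0.24 and 0.66). ERN1 was called in DESeq2 (0.016), with the replicate block (0.038), with no filter (0.044) and with a mean of at least 10 counts (0.0499). These were 4 of the 17 alternatives, and the direction stayed the same throughout. MANF was the 1 tested member with every siNAT10 library above every siCtrl library, a position that 2.25% of all tested genes held. ERN1 was the 1 member with every siNAT10 library below, against 3.15% of all tested genes.

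**Figure D2:**
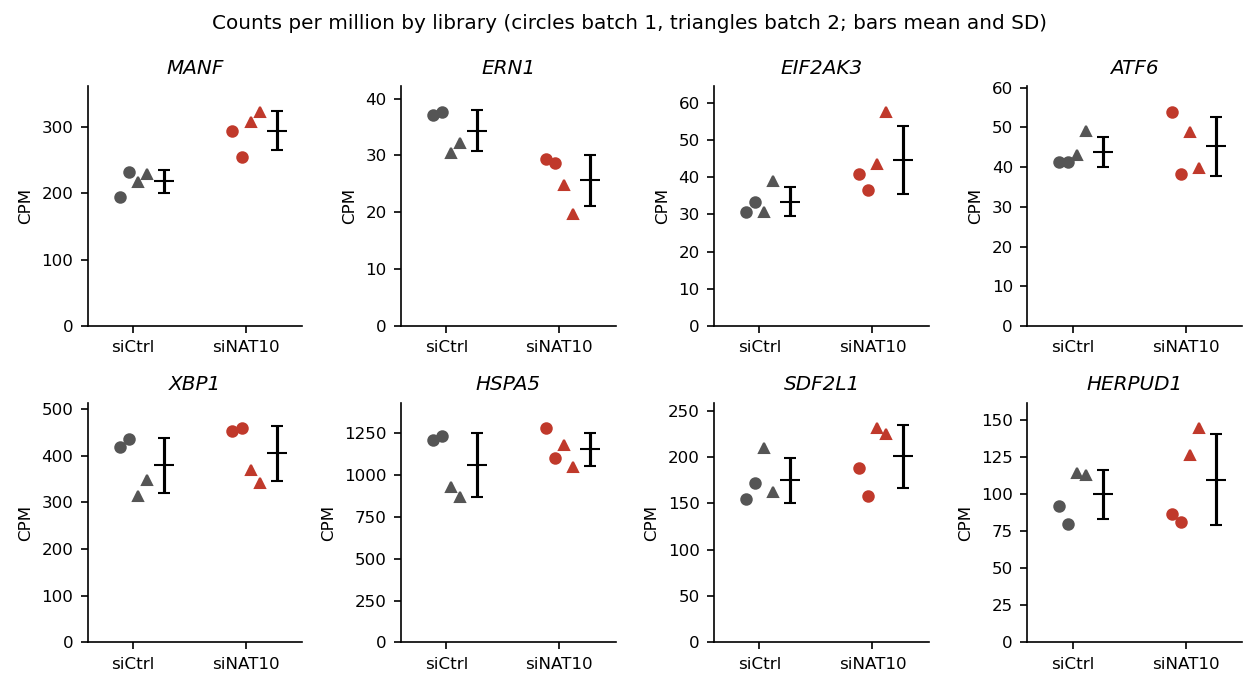
CPM of 8 members in each library, from 0 upward; circles are batch 1, triangles batch 2, and the bar beside each group is its mean and SD (n = 4). MANF is higher and ERN1 lower in all siNAT10 libraries, while the XBP1 and HERPUD1 libraries separate by batch.

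Among the other sensors and transcription factors, EIF2AK3, which encodes PERK, the kinase that slows translation through eIF2 alpha, came closest to a call. It stood at 30.6, 33.3, 30.5 and 38.9 CPM under siCtrl and 40.8, 36.5, 43.6 and 57.6 CPM under siNAT10. Each siNAT10 library was above both siCtrl libraries of its batch, but siCtrl replicate 4 lay above siNAT10 replicate 2. Its log2 fold change of 0.41, standard error 0.12, was not called in edgeR (adjusted p 0.094), but was called with the replicate number as a block (0.043) and in DESeq2 (0.047). A gene without a symbol lies over its 3' end on the other strand. MANF, EIF2AK3, SYVN1 and DERL2 were the 4 of 36 members above both siCtrl libraries of the batch in both batches. All tested genes held that position in 6.76% of cases. ERN1 and CREB3L3 were the 2 of 36 members below in the same way, against 7.90% of all tested genes. ATF6, the sensor cleaved in the Golgi, stood at 41.2 to 49.2 CPM under siCtrl and 38.3 to 54.0 CPM under siNAT10, a log2 fold change of 0.05 with an interval from -0.21 to 0.31. XBP1 stood at 418.6, 436.5, 312.7 and 348.5 CPM under siCtrl and 451.8, 458.7, 369.3 and 341.4 CPM under siNAT10, a log2 fold change of 0.10 with an interval from -0.10 to 0.30. Its libraries were sorted by batch rather than by siRNA. CREB3L3, a liver transcription factor of the ATF6 type, averaged 5.80 and 5.21 CPM under siCtrl and siNAT10. WFS1, an ER membrane protein that restrains ATF6, averaged 174.8 and 162.0 CPM, with siNAT10 replicate 4 lowest at 126.7 CPM.

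The chaperones of the HSP70 and HSP90 families and their cofactors had 0 of 7 called, with a median log2 fold change of 0.036. HSPA5 stood at 1210, 1231, 928.4 and 864.8 CPM under siCtrl and 1278, 1101, 1178 and 1048 CPM under siNAT10. The groups overlapped, the siCtrl libraries of batch 2 being the lowest. Its log2 fold change was 0.14 with an interval from -0.10 to 0.37 (adjusted p 0.60 in edgeR), and it was -0.03 in batch 1 and 0.31 in batch 2. HSP90B1, whose product GRP94 folds integrins and Toll-like receptors, averaged 1358 ± 131.6 and 1391 ± 129.5 CPM (SD, n = 4). SDF2L1, a partner of BiP and its J-domain cofactors, had the largest log2 fold change of the family, 0.19 with an interval from -0.05 to 0.42 (adjusted p 0.45 in edgeR). It stood at 155.3, 171.8, 210.4 and 162.6 CPM under siCtrl and 188.4, 158.4, 231.2 and 224.7 CPM under siNAT10, so siNAT10 replicates 1 and 2 lay within the siCtrl range. The J-domain proteins DNAJB9, DNAJB11 and DNAJC3, which load clients onto BiP, had log2 fold changes of -0.02, -0.03 and 0.14. The large HSP70 HYOU1 was at -0.02 with a wide interval from -0.73 to 0.69. Of the lectin chaperones, which hold glycoproteins until they fold, only CALR was tested: it averaged 1666 ± 250.6 CPM under siCtrl and 1542 ± 141.6 CPM under siNAT10, a log2 fold change of -0.11.

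Disulfide bond enzymes also had 0 of 7 called, and 5 of the 7 had negative log2 fold changes, beside 6968 of all 13840 tested genes. PDIA3, the disulfide isomerase that works with calreticulin and calnexin, had the lowest value, -0.39 with an interval from -0.69 to -0.10 (adjusted p 0.17 in edgeR). Its levels were 123.6, 149.7, 148.2 and 131.2 CPM under siCtrl and 102.4, 82.5, 93.9 and 146.9 CPM under siNAT10. In 3 of 4 siNAT10 libraries it was below the whole siCtrl range, and siNAT10 replicate 4 was inside it. Without siNAT10 replicate 4 PDIA3 was called lower, at -0.56 (adjusted p 0.019 in edgeR). It was also called lower with every library kept and no filter on low counts, at -0.40 (adjusted p 0.033 in edgeR). On the opposite strand, ELL3 overlaps the end of PDIA3, and a pair of PDIA3 pseudogenes reached 2.36 CPM together at most. Reads from the opposite strand may also be in the count, so its uncertainty is not bounded by the pseudogenes. The isomerases PDIA4, PDIA6 and P4HB had log2 fold changes of 0.15, -0.12 and -0.14. The oxidases that recharge them, ERO1A and ERO1B, were at -0.11 and 0.31, ERO1B from only 16 to 72 counts per library. Without siNAT10 replicate 4, ERO1B was at -0.12, so 1 library set its direction. CRELD2, a stress-induced secreted protein with isomerase activity, averaged 72.5 ± 5.87 and 65.1 ± 13.5 CPM (SD, n = 4), a log2 fold change of -0.16 where MANF, often induced with it, was at 0.43.

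In the degradation group, 0 of 9 tested members were called, and 7 of 9 had positive log2 fold changes, with a median of 0.11. Positive values were held by 49.7% of all tested genes and by 9 of 17 tested degradation genes outside the list. When scaled by total count alone, which put the median of all genes at 0.037, 8 of 9 members were positive. EDEM1, a lectin that extracts misfolded glycoproteins from the folding cycle, had the largest log2 fold change of all members, 0.47 with an interval from 0.09 to 0.85 (adjusted p 0.20 in edgeR). It stood at 9.20, 12.8, 12.5 and 21.0 CPM under siCtrl and 20.4, 17.5, 17.2 and 19.6 CPM under siNAT10. The siNAT10 libraries were close together, and siCtrl replicate 4 was the highest of all 8. Without siCtrl replicate 4 EDEM1 was called at 0.69 (adjusted p 0.035 in edgeR), and it was the only member called in batch 1 alone (0.79, edgeR adjusted p 0.030). Without siCtrl replicate 1, the lowest library, it was at 0.31 (adjusted p 0.53 in edgeR), and in batch 2 alone at 0.14 (0.94). SYVN1, the ubiquitin ligase HRD1 of the degradation complex, stood at 55.3, 55.2, 40.2 and 43.8 CPM under siCtrl and 60.9, 64.7, 44.9 and 54.9 CPM under siNAT10, above both siCtrl libraries in each batch. Its log2 fold change of 0.22 was not called (adjusted p 0.31 in edgeR), and FAU on the same strand covers its 3' end, so the count is uncertain. SEL1L, the scaffold of HRD1, was at 0.09 and HERPUD1, which joins the complex under stress, at 0.11. The glycoprotein lectin EDEM2 was at -0.01. The channel proteins DERL1 and DERL2 were at -0.20 and 0.12, and the selenoproteins SELENOS and SELENOK, which link the channel to cytosolic partners, at 0.03 and 0.16.

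Of the 5 translocation genes, which bring nascent chains into the ER, 0 were called in edgeR and 0 had an unadjusted p under 0.05. SEC61B, the small beta subunit of the translocon, had the largest log2 fold change, 0.18 with an interval from -0.06 to 0.42 (adjusted p 0.47 in edgeR). It stood at 52.6, 55.1, 69.7 and 93.4 CPM under siCtrl and 68.6, 55.6, 88.1 and 93.3 CPM under siNAT10, so the groups overlapped. The channel subunit SEC61A1 was at 0.15, the associated proteins SSR1 and SSR3 at 0.08 and -0.10, and the signal peptidase subunit SPCS3 at 0.07.

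Over the 36 tested members the median log2 fold change was 0.061, beside -0.0024 over all 13840 tested genes. Signs were positive for 21 and negative for 15 (58.3% positive, beside 49.7% of all tested genes). They were positive for 25 and negative for 11 when libraries were scaled by total count alone, which put the median of all genes at 0.037. There DNAJB9, DNAJB11, HYOU1 and EDEM2, all close to 0, changed sign. How far a missed call can be read was shown by the intervals: for 29 of 36 members the 95% interval lay within a change of 1.5-fold in either direction, and for 35 of 36 within 2-fold. The 7 members whose interval passed 1.5-fold were MANF, ERN1, EIF2AK3, EDEM1, PDIA3, HYOU1 and ERO1B, and ERO1B was the one past 2-fold.

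**Figure D3:**
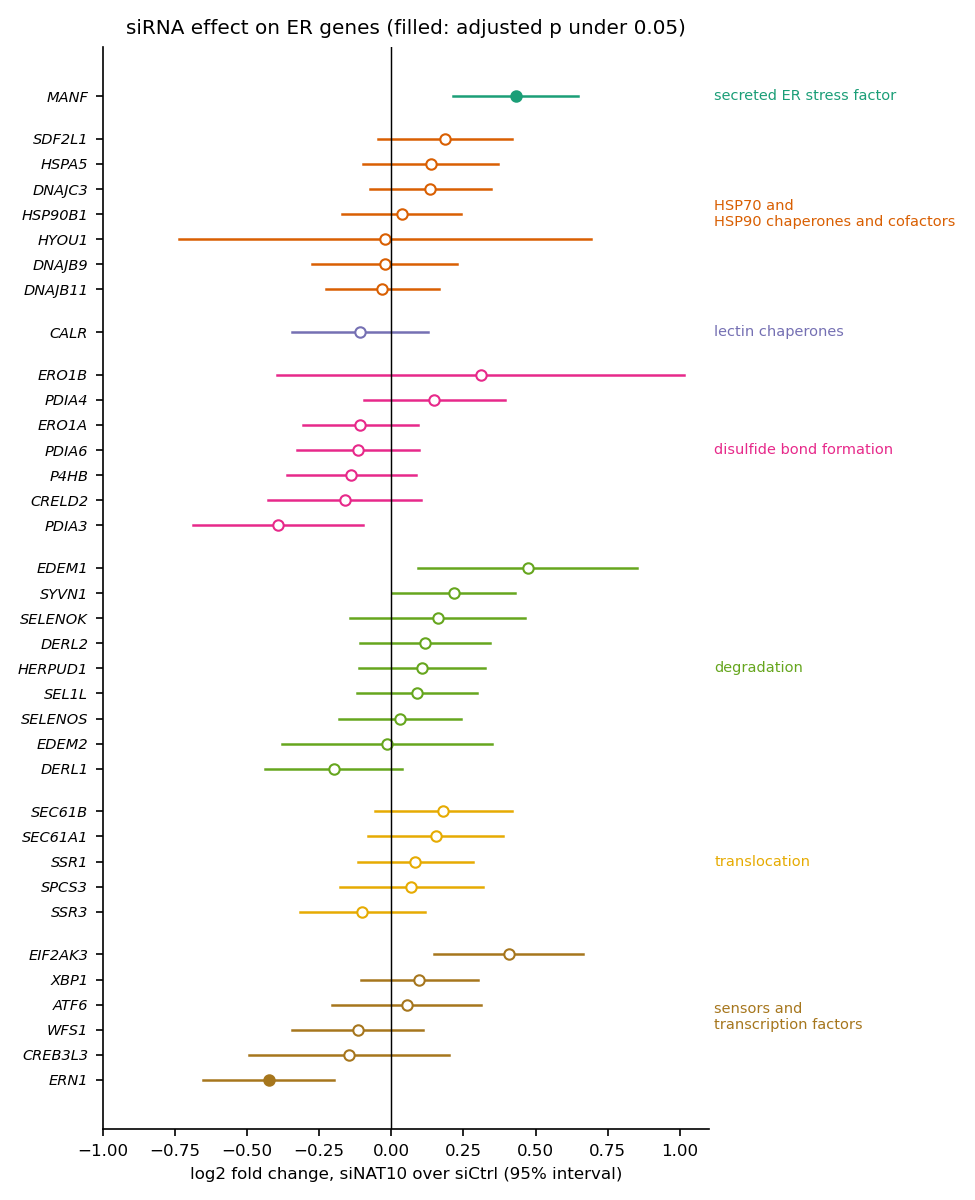
Log2 fold change of siNAT10 over siCtrl for the 36 tested members, grouped by role, with 95% intervals from edgeR's quasi-likelihood fit; filled points have an adjusted p under 0.05. The filled points are MANF at 0.43 and ERN1 at -0.42, and most intervals of the chaperones, disulfide enzymes and translocation genes include 0.

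Other genes of the ER pathway were counted from a list of 99, of which 90 were tested. In edgeR 0 of them were called, 12 of 90 had an unadjusted p under 0.05 (13.3%, against 15.7% of all tested genes) and the median log2 fold change was -0.03. By role, the medians were -0.07 over 22 folding genes, 0.07 over 17 degradation genes, 0.0084 over 22 translocation and glycosylation genes, -0.10 over 13 signalling genes and 0.017 over 16 export and retrieval genes. The DESeq2 Wald test called 3 of the 90, EDEM3, MBTPS2 and NUCB1, and the fit with the replicate block called EDEM3 and MBTPS2. EDEM3 was also called with RLE size factors and with library size alone, and MBTPS2 with no filter. These genes are named because of such calls, after their values were seen. EDEM3, a mannosidase of the same family as EDEM1, averaged 16.7 ± 2.27 CPM under siCtrl and 22.9 ± 2.20 CPM under siNAT10 (SD, n = 4), a log2 fold change of 0.45 with an edgeR adjusted p of 0.0502, just above the threshold. MBTPS2, the protease that releases ATF6 from the membrane, averaged 10.8 ± 2.40 and 16.3 ± 1.59 CPM, a log2 fold change of 0.59 (adjusted p 0.061 in edgeR). NUCB1, a calcium-binding protein, averaged 34.2 ± 4.02 and 26.6 ± 2.52 CPM, a log2 fold change of -0.36 (adjusted p 0.076 in edgeR).

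More members were called between the batches than between the siRNAs. Between batch 2 and batch 1, with siRNA in the model, 10 of 36 members were called (27.8%), beside 25.3% of all tested genes, a similar share. DNAJB9, the J-domain protein ERdj4, had the largest difference: 28.7 and 28.8 CPM under siCtrl and 30.2 and 21.7 CPM under siNAT10 of batch 1, against 44.0, 47.0, 45.6 and 52.2 CPM in batch 2. Its log2 fold change between batches was 0.79 with a standard error of 0.12 (adjusted p 2.1e-04 in edgeR), with no overlap of the batches. SEC61B, HERPUD1, SELENOS and DERL2 were also higher in batch 2, by 0.57, 0.54, 0.47 and 0.41 on the log2 scale. DNAJB11, SYVN1, XBP1, ERN1 and SEL1L were lower, at -0.36, -0.36, -0.36, -0.32 and -0.29. The count of DNAJB11 is uncertain, as is that of SYVN1, since a second gene of like orientation covers the 3' end. The degradation genes held 5 of these 10 calls, 3 higher and 2 lower. MANF was at 0.13 between batches and was not called (adjusted p 0.36 in edgeR). The labels give the batch by number alone.

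The siRNA effect on a member was then compared between batches. In edgeR 0 of 36 members were called for a batch by siRNA interaction, as for 0% of all tested genes. An unadjusted p under 0.05 was found for 1 of 36 (2.78%), beside 3.04% of all tested genes. That member was ERO1B, with log2 fold changes of -0.28 in batch 1 and 1.04 in batch 2, from few counts and with siNAT10 replicate 4 apart at 4.50 CPM. For MANF the effect in batch 2 minus that in batch 1 was 0.14 with a 95% interval from -0.31 to 0.59, and for ERN1 it was -0.12 with an interval from -0.60 to 0.36. For EDEM1 it was -0.65 with an interval from -1.35 to 0.06. The log2 fold changes of the batches had the same sign for 25 of 36 members (69.4%), beside 61.9% of 13261 genes fitted in both.

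**Figure D4:**
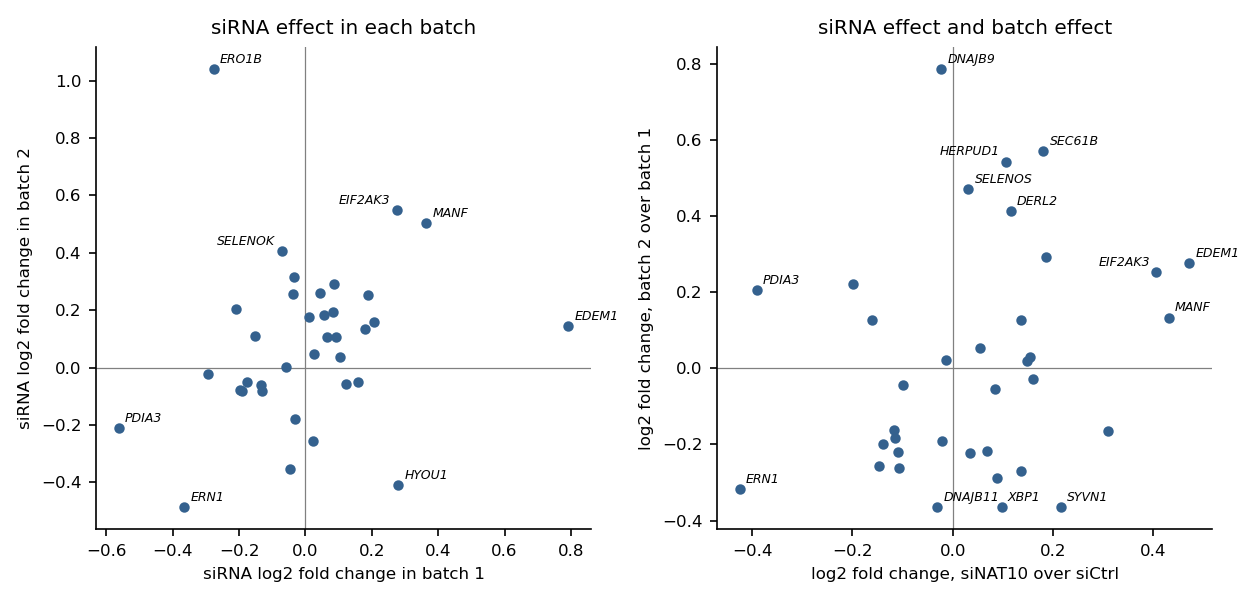
Each point is 1 of the 36 tested members: left, the siRNA log2 fold change in batch 1 (x) and batch 2 (y); right, the siRNA log2 fold change over both batches (x) and the log2 fold change of batch 2 over batch 1 (y); members beyond 0.36 on either axis are named. MANF and EIF2AK3 are positive and ERN1 and PDIA3 negative in both batches, and DNAJB9, at 0.79, is the member farthest from 0 between batches.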

How the data were processed

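The members and gene lists were chosen with earlier results of these data known. The authors deposited raw counts for each Ensembl identifier, made with STAR 2.7.9a on GRCh38 and featureCounts, with Trim Galore 0.6.10 and cutadapt 3.5 also named, per the submitters' processing notes; annotation release, strand setting and multi-mapping rule are not given in the sources used here. The labels name the QuantSeq kit as FWD in one place and REV in another, and reads of a gene and one on the other strand may not be separated. Symbols and coordinates came from GENCODE 44 (GRCh38), which matched 61458 of 86369 identifiers. In R 4.3.3, edgeR 4.0.16 kept genes by filterByExpr (minimum count 10), scaled libraries by TMM and ran the quasi-likelihood test across all 13840 genes with batch and siRNA as terms. Adjusted p is Benjamini-Hochberg over those genes. Standard errors and intervals came from the F statistic. CPM uses TMM-scaled totals. Statements on depth cover counting error only. DESeq2 1.42.0, no batch term, a replicate block, other scalings and filters, each batch and leaving out each library were alternatives. Every member was to be named, with full statistics for MANF, called members and the largest change in each role, and called genes from the wider list. Same-numbered libraries of both groups deviated together across genes (correlations 0.39, 0.38, 0.45 and 0.36). Such libraries share a batch and batch was left in the deviations, so these values cannot show whether the numbers pair the samples. Promoter sequences are RefSeq's (GRCh38.p14).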

Additional observations from a re-analysis of the deposited data

Results flagged for a closer look

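There were 72 groups of 4 libraries (36 members in each siRNA group). In 4 of them a library lay far from the other 3, by its gap to the nearest. For 4 like libraries from a single normal distribution, chance gives about 1 in 20, or 3.6. These groups each span both batches, so that rate need not hold for them. All 4 were siNAT10 libraries. PDIA4 was at 751.7 CPM in siNAT10 replicate 3, against 642.2 to 651.6 CPM in the other siNAT10 libraries. CRELD2 was at 85.2 CPM in siNAT10 replicate 3, against 56.8 to 61.1 CPM. ERO1B was at 4.50 CPM in siNAT10 replicate 4, against 1.73 to 2.19 CPM. CREB3L3 was at 6.12 CPM in siNAT10 replicate 2, against 4.86 to 4.98 CPM.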

How the results depend on the processing

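The count of called members, 2, was 0 without the batch term, 1 with RLE size factors, 1 with library size alone, 1 in batch 1 alone, 0 in batch 2 alone, and 0 to 1 in the fits without one library. It was 3 with the replicate block and with DESeq2, where EIF2AK3 was added, and 3 with no filter, where PDIA3 was added. With a mean of at least 10 counts it was 2. The count over all genes, 315, was 15 without the batch term, 599 with DESeq2, 595 with no filter, 173 in batch 1 alone, 0 in batch 2 alone (946 at an unadjusted p under 0.05) and 75 to 286 without one library. The other ER genes, 0 called, had 2 with the replicate block, 3 with DESeq2, and 1 each with RLE size factors, library size alone and no filter. With the replicate block in place of batch, which treats same-numbered libraries as pairs, EIF2AK3 was the 1 member whose call changed. The members' median, 0.061, ran from 0.018 to 0.11 over all alternatives. MANF and ERN1 kept their direction in all 17. Library size alone put the median of all genes at 0.037. Between batches 8 to 11 members were called. Few counts lay behind ERO1B, HYOU1, CANX and DERL3; the cause was not tested.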
